A study of Mus musculus with 4 samples.

Results

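Normal mouse intestinal crypts were described from 2 arrays of crypt cells taken by laser capture microdissection from control mice, out of 4 arrays in the series. They were the arrays titled as control crypts at day 2, and the 2 arrays of crypts with beta-catenin deleted were left out. The mutant mice were studied 2 days after tamoxifen induced the deletion, whereas the labels give neither the genotype nor the treatment of the controls beyond the word control. The sources used here give no strain, age, sex or gut segment and do not say whether the 2 samples came from separate mice, so their spread may be technical. RNA of the captured cells went through 2 rounds of mRNA amplification and was then hybridised, biotin-labelled, to Affymetrix arrays, which report one brightness value, the signal, for each probe set. After leaving out 64 control probe sets, 45037 probe sets remained, of which 34945 carried exactly 1 gene symbol. They represented 18193 genes, each read at the probe set that was brightest on average.

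The crypt is the gland-like pocket of the intestinal wall in which the epithelium renews itself. Stem cells lie at its base between Paneth cells, which secrete antimicrobial proteins, and their daughters divide in the middle of the crypt before they become absorptive enterocytes or secretory goblet, enteroendocrine and tuft cells. Enterocytes complete their brush border of digestive enzymes and nutrient transporters as they leave the crypt for the villus.

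Each gene was placed by its percentile among all 18193 genes within an array, where 100 is the brightest. Percentiles do not change with scaling, but probe sets bind with different strength, so the order is one of signals and not of molecule numbers. For differences between the arrays, signals were taken as log2(signal + 5) and quantile normalised over the 2 control arrays, and the difference is replicate 1 minus replicate 2. These differences were counted over the 9097 genes at or above the median level, called the brighter genes here. With 1 group of 2 samples no test applied, and both values are given in place of a mean and an error.

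The arrays had nearly equal trimmed means, 130.5 in replicate 1 and 130.2 in replicate 2, but median signals of 32.03 and 21.08. Replicate 2 had the lower ratio of 5′ to 3′ signal for the control probe sets of actin, 0.0567 against 0.149, and of Gapdh, 0.0582 against 0.116. The part of these ratios in the differences between the arrays was not tested.

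Epithelial transcripts were bright, and transcripts of unrelated tissues were dim. All 19 measured genes of the epithelial identity list lay at or above the 50th percentile and 13 at or above the 90th, where 49.7% and 9.73% of all genes lay. Krt8, a keratin of simple epithelia, had signals of 7037 and 8942 in replicates 1 and 2. Epcam, an epithelial adhesion molecule, had 5941 and 7468, but 1851 and 686 on its other probe set. Ctnnb1, which encodes beta-catenin, had 4700 and 5997. All 3 were among the brightest genes of both arrays. Of 39 measured genes of tissues such as brain, muscle, skin, testis and lung, 1 lay above the 50th percentile, and their median percentile was 18.1. That gene was Lor, a protein of the skin's cornified layer, with 72.6 and 37.0.

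The brightest 15 genes by mean percentile held 5 ribosomal protein genes, Rpl13a, Rps18, Rps29, Rps28 and Rps20, and the translation factor Eef1a1. They also held Uqcrb of the respiratory chain, Hadh of fatty acid oxidation, the ferritin chain Fth1, the redox protein Txn1, the reductase Akr1a1 and Hint1. The remaining 3 were genes of crypt and mucosal cells. Lyz1, the Paneth cell lysozyme, had signals of 8453 and 11862 and ranked 4 and 2. Fabp1, the fatty acid binding protein of enterocytes, had 7833 and 10059 and ranked 12 and 9. Igha, the constant region of IgA, had 7882 and 10622 and ranked 11 and 7. The brightest Lyz1 probe set is of a type that can bind related transcripts, and Lyz2, the macrophage lysozyme, had 3833 and 1455 on its own probe set. The third Lyz1 probe set, which is not of that type, had 186 and 120.

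**Figure D1:**
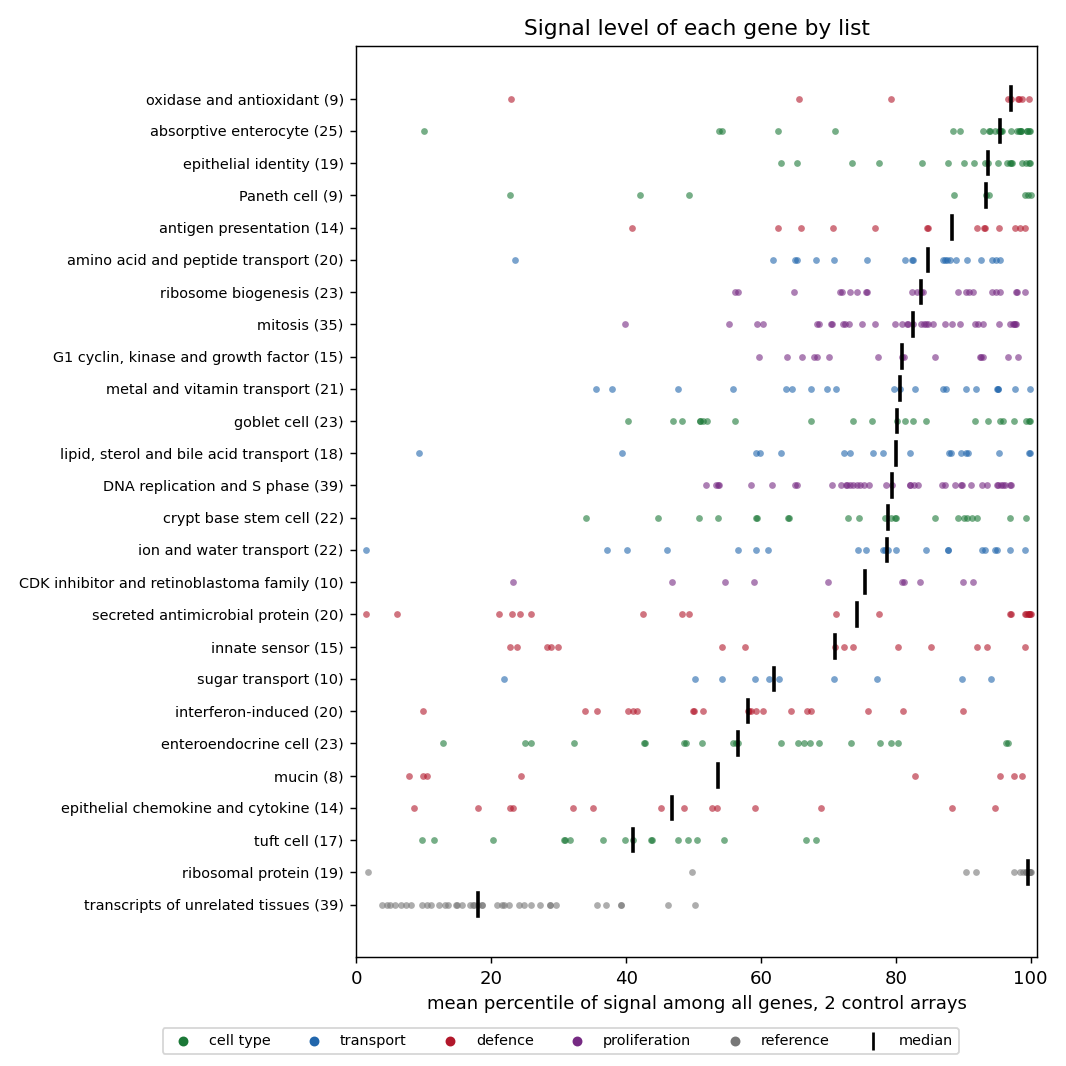
Mean percentile of signal over the 2 control arrays (x axis, 0 to 100) for every measured gene (points) of 24 crypt lists, ribosomal protein genes and transcripts of unrelated tissues, with the number measured in brackets and a black bar at the median. The list medians run from 97.1 for oxidase and antioxidant genes to 41.0 for tuft cell genes, above the 18.1 of unrelated tissues.

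Among the cell type lists, the absorptive enterocyte list had the highest median percentile, 95.5 (97.8 in replicate 1 and 93.0 in replicate 2), followed by the Paneth list at 93.4, the goblet list at 80.2, the stem cell list at 78.9, the enteroendocrine list at 56.6 and the tuft list at 41.0. Some genes stand in more than 1 list. The goblet list was above the stem cell list in both arrays, 78.5 against 75.04 in replicate 1 and 81.3 against 79.5 in replicate 2, but by less than the spread between arrays. The single-array medians did not overlap between the Paneth and goblet lists, the stem cell and enteroendocrine lists or the enteroendocrine and tuft lists. The enterocyte and Paneth lists overlapped only through replicate 2, where their medians were 93.0 and 93.0. In all, 16 of the 23 neighbouring pairs of the 24 crypt lists overlapped in this way. The rank correlation of the 24 list medians between the arrays was 0.897, as a description over lists that share the arrays.

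Most measured Paneth cell genes were bright in both arrays. Of 24 listed genes, 9 had a probe set named for them alone, and most of the alpha-defensins were not analysed here. Of these 9 genes, 5 lay at or above the 90th percentile. Ang4, a secreted ribonuclease with antimicrobial activity, had signals of 5446 and 7412. Itln1, the lectin intelectin, had 4291 and 5329. Mmp7, the protease that activates alpha-defensins, had 1094 and 1135. Of all brighter genes, 5.41% were 2-fold or more higher in replicate 1 and 3.59% in replicate 2. At their brightest probe sets, none of the 6 brighter Paneth genes was 2-fold apart. Their log2 differences ran from -0.11 to 0.45 with a median of -0.01. That median was -0.31 on the deposited scale and -0.82 with the arrays centred on their medians. Other probe sets of Ang4 and Pnliprp2 had 1723 and 792, and 376 and 126, both over 2-fold higher in replicate 1. A second Lyz1 probe set had 7471 and 10405, a log2 difference of -0.05. Outside the list, Defa39 had 4736 and 6034, a gene singled out after its values were seen. Another alpha-defensin, Defa31, had 219 and 3254, so that the 2 arrays disagreed on it by 13.7-fold. Both were read from single probe sets that can bind related defensins.

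Goblet cell genes ranged from among the brightest to below the median. Zg16, a lectin of the mucus layer, had signals of 7305 and 9708. Tff3, the intestinal trefoil factor, had 6165 and 8419, and Muc2, the gel-forming mucin, had 2124 and 2989. Atoh1, the transcription factor that sets the secretory fate, had 260 and 286. Spdef, a factor of goblet cell maturation, lay at percentile 47.0 with 34.8 and 69.4. Retnlb, a goblet cell protein with antibacterial activity, had 4.51 in replicate 1 and 581 in replicate 2, the largest difference of all brighter genes. It counted as a brighter gene through replicate 2 alone and so had to be higher there. It had a single probe set, so no second reading was to be had. Klk1, a kallikrein, had 787 and 308, but 322 and 304, 303 and 314, and 124 and 121 on its other probe sets. Agr2, a disulphide isomerase needed for mucin folding, had 1510 and 624, while its other probe set had 1171 and 833.

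Stem cell genes spread from percentile 34.1 to percentile 99.3. Olfm4, a secreted marker of crypt base columnar cells, had signals of 4899 and 5099. Slc12a2, a sodium-potassium-chloride cotransporter enriched at the crypt base, had 1674 and 2856, but 758 and 323, and 470 and 779, on its other probe sets. Prom1 had 660 and 1430, Axin2, a feedback inhibitor and target of Wnt signalling, had 234 and 514, and Smoc2 had 226 and 490. All 3 were 2-fold or more higher in replicate 2, although the other Smoc2 probe set had 53.0 and 57.6. Ascl2, the transcription factor of intestinal stem cells, had 108 and 158, and Lgr5, the receptor that defines these cells, had 76.6 and 58.4. Lgr5 lay at percentile 53.6, close to the middle of all genes, and its other probe set had 21.3 and 25.4. Tnfrsf19 was the dimmest of the 22 measured genes with 19.2 and 27.4.

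Hormone genes of enteroendocrine cells differed widely in signal. Chgb, a granin of secretory granules, had 1879 and 2156, and Gip, an incretin hormone of the proximal intestine, had 1341 and 2880. Cck had 364 and 331, and Chga, the granin most used as a marker of these cells, had 285 and 374. Neurog3, the factor that starts endocrine differentiation, had 110 and 229, and Isl1 had 44.9 and 85.5, both 2-fold or more higher in replicate 2. Isl1 counted as a brighter gene through replicate 2 alone and so had to be higher there. Its other probe set had 54.8 and 31.9. Nts and Pcsk1n were the dimmest of 23, the latter with 6.42 and 3.56.

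Tuft cell genes were the dimmest of the cell type lists. Of 17 measured genes, 4 reached the 50th percentile and none the 90th. Alox5ap, which serves leukotriene synthesis, had 203 and 129. Rgs13 had 293 and 69.6, and Dclk1, a kinase used as the marker of tuft cells, had 87.9 and 54.7. Trpm5, their taste-signalling channel, had 46.6 and 20.01, and the cytokine Il25 had 1.14 and 6.41, within the range of the unrelated tissues.

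Markers of the gut segment were read in the same way. All 7 genes of the proximal small intestine list lay at or above the 50th percentile, with Ada, adenosine deaminase, at 1438 and 4232, Lct, lactase, at 3333 and 1011, and Slc40a1, the iron exporter, at 1604 and 1349. The ileal bile acid genes Fabp6 and Slc10a2 had 21.6 and 49.3, and 7.76 and 1.10. Their listed partners Slc51a and Slc51b, which export bile acids, had 292 and 166, and 152 and 59.4. The large intestine list was split in the same way, with Hoxb13 and Car1 at percentiles 8.42 and 21.6, and Mxd1 and Car4 at percentiles 86.6 and 78.1.

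RNA of other cells was present to an unequal degree. Jchain, the joining chain of IgA and IgM, had 7122 and 7065, while the B cell genes Ms4a1 and Cd79a had 34.8 and 7.92, and 26.8 and 7.34. The fibroblast and smooth muscle lists had median percentiles of 74.6 and 56.6. They were led by Col3a1 with 576 and 1193 and Acta2 with 947 and 2006, at percentiles 90.7 and 94.5. Enteric neuron and glia genes lay at or below percentile 37.0. Among 10 measured pancreatic genes, Clps, the colipase gene, had 1022 and 1339, whereas Cpa1 and Cpb1 lay at percentiles 7.29 and 6.66.

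Transport genes came next. The median percentile was 84.8 for amino acid and peptide transport, 80.6 for metal and vitamin transport, 80.1 for lipid, sterol and bile acid transport, 78.7 for ion and water transport and 62.0 for sugar transport. The single-array medians of the metal, lipid and ion lists overlapped. Among lipid genes, Fabp2 had 6962 and 7063 and Abcg2, an efflux pump, had 1060 and 631. Npc1l1, which takes up cholesterol, had 904 and 591, and Slc27a4, a fatty acid transport protein, had 707 and 551. Abcg5 and Abcg8, the partners of the sterol efflux pump, had 922 and 448, and 188 and 70.9, both 2-fold or more higher in replicate 1. The sugar list had the largest gap between arrays of the 24 lists, 72.4 in replicate 1 against 51.5 in replicate 2.

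Among ion transporters, Atp1b1, a subunit of the sodium pump, had 4290 and 5028. Slc26a3, a chloride-bicarbonate exchanger, had 1575 and 1291, and Cftr, the chloride channel of crypt secretion, had 1607 and 1180. Kcnn4, a potassium channel, had 749 and 1491. Atp12a, a proton pump subunit, had 0.440 and 0.808. Of the 18 brighter ion and water genes, 3 were 2-fold or more higher in replicate 1, namely Slc9a2, Aqp11 and Aqp3, and none in replicate 2, beside 5.41% and 3.59% of all brighter genes.

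Metal carriers and stores ranged widely in signal. Fth1 had 8132 and 9819, and Tfrc, the transferrin receptor, had 2393 and 2965. The iron uptake genes Cybrd1 and Slc11a2 had 68.7 and 91.6, and 144 and 121. Heph, the ferroxidase of iron export, had 1361 and 530, Slc46a1, the proton-coupled folate transporter, had 575 and 208, and Mt2, a metallothionein, had 840 and 412.5. Atp2b1, a calcium pump, had 2287 and 1109, and the manganese exporter Slc30a10 had 227 and 103. These 5 genes were the 2-fold differences among the 18 brighter genes of the list, all higher in replicate 1, as were 5.41% of all brighter genes. A further probe set of Atp2b1 had 409 and 385. The calcium channel Trpv6 had 18.9 and 34.7.

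Of the 19 brighter amino acid and peptide transporters, 10 were higher in replicate 1, 5 by 2-fold or more, and 1 was 2-fold higher in replicate 2. Of all brighter genes, 42.3% were higher in replicate 1, 5.41% by 2-fold or more, and 3.59% were 2-fold or more higher in replicate 2. Slc7a1, a carrier of cationic amino acids, had 1031 and 2790, and 589 and 588 on another probe set. Slc6a19, the brush border carrier of neutral amino acids, had 1204 and 400, Slc43a2 had 2405 and 861, and Slc6a20a had 1839 and 691. Slc15a1, the peptide transporter of the brush border, had 695 and 55.9, a difference of 3.43 on the log2 scale in its single probe set. Slc7a9, a carrier of cystine and cationic amino acids, had 1737 and 1172.

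Defence genes held both the brightest and the dimmest products. Of 20 secreted antimicrobial genes, 9 lay at or above the 90th percentile and 9 below the 50th. Pigr, the receptor that carries IgA across the epithelium, had 6546 and 6490. Lypd8, which keeps flagellated bacteria from the epithelium, had 5699 and 7606. Reg3b and Reg3g, antibacterial lectins, had 5937 and 4533, and 2371 and 2135. The other Reg3b probe set had 3403 and 1299. Reg3a had 616 and 148. The neutrophil genes S100a8, S100a9 and Ltf lay at percentiles 23.0, 24.2 and 6.07. Retnlb, on this list too, lay on different sides of the 50th percentile in the 2 arrays.

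The remaining defence lists fell in the order oxidase and antioxidant (median percentile 97.1), antigen presentation (88.3), innate sensor (71.0), interferon-induced (58.1), mucin (53.6) and epithelial chemokine and cytokine (46.8). Sod1, a superoxide dismutase, had 6153 and 6886, and Gpx2, the gut glutathione peroxidase, had 1691 and 3113. B2m had 6099 and 3727 and H2-K1 had 3527 and 3243. Class II genes went both ways. H2-Eb1 had 561 and 146, and H2-Aa had 1747 and 769, although another of its probe sets had 342 and 616. H2-Ab1 had 487 and 451, Cd74, the invariant chain, had 348 and 652, and H2-DMa had 109 and 196. Pycard, the inflammasome adaptor, had 3947 and 6093, whereas the receptor genes Tlr4 and Tlr5 lay at percentiles 22.7 and 23.8. Of the interferon-induced genes, Ifih1, a sensor of double-stranded RNA, had 768 and 722, and Mx2 had 5.52 and 1.87. Of the mucins, Muc13 had 3724 and 4061, but 1673 and 545 on its other probe set, and the gastric Muc5ac had 3.53 and 2.87. Ccl25, the chemokine that draws lymphocytes to the small intestine, had 1729 and 1126, and Tslp had 1.94 and 3.41. The cytokine genes Il18 and Il33 were higher in replicate 1, with 1167 and 280, and 413 and 65.9.

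Proliferation genes lay in the upper part of both arrays with few dim members. All 39 measured DNA replication genes and 34 of 35 mitosis genes were at or above the 50th percentile. The median percentile was 83.8 for ribosome biogenesis, 82.5 for mitosis, 81.0 for G1 cyclins, kinases and growth factors, 79.5 for DNA replication and 75.4 for CDK inhibitors and the retinoblastoma family. Pcna, the sliding clamp, had 1969 and 2666, Mcm7 of the replicative helicase had 1635 and 2930, and Mcm6 had 1239 and 1050. Cdc20, an activator of the anaphase-promoting complex, had 2131 and 3218, and Mki67, the Ki-67 gene, had 1848 and 3438. Ccnd1, cyclin D1, had 1073 and 948, and Myc had 161 and 172. Cdkn1a, the p21 inhibitor, had 697 and 1110, and Cdkn2a had 18.4 and 8.62. Npm1, a nucleolar chaperone, had 4120 and 5149.

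**Figure D2:**
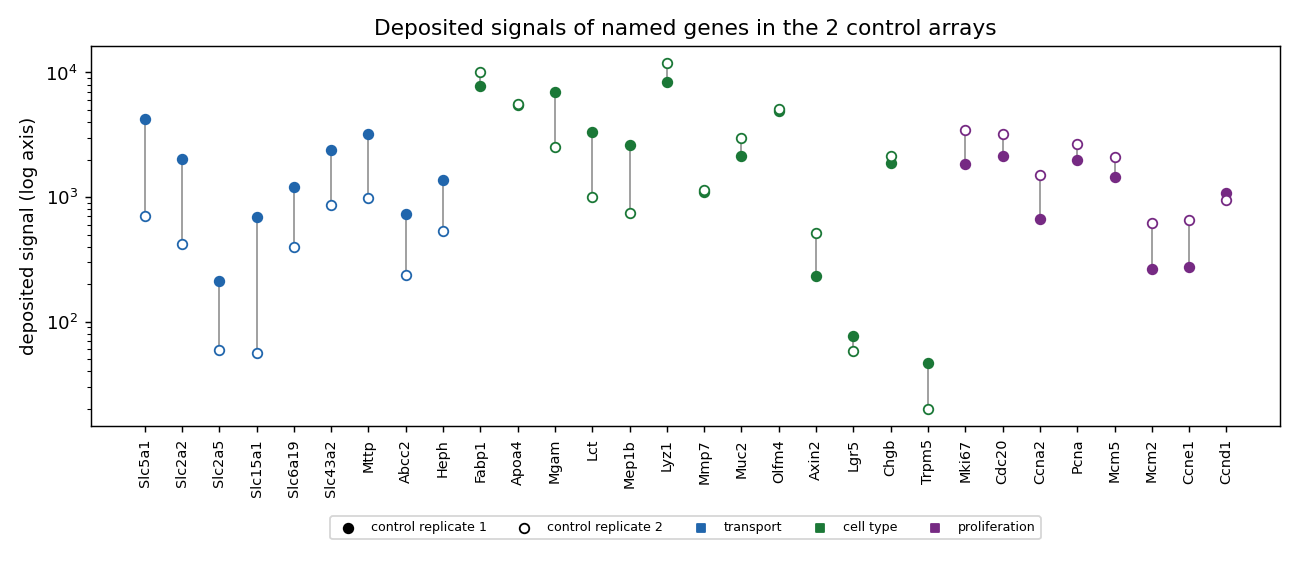
Deposited signals (y axis, log scale) of 30 genes named in the text, filled circles for control replicate 1 and open circles for replicate 2, joined by a line, with transport genes in blue, cell type genes in green and proliferation genes in purple. The 9 transport genes drawn, chosen after their values were seen, are higher in replicate 1. So were 57 of the 80 brighter genes of the 5 transport lists, beside 42.3% of all brighter genes. By list this ran from 10 of 19 for amino acid and peptide transport to 15 of 16 for lipid, sterol and bile acid transport. Of the 9 sugar genes counted, 3 were brighter genes through replicate 1 alone. Slc15a1 has the longest line (695 and 55.9), whereas Olfm4 (4899 and 5099) and Mmp7 (1094 and 1135) nearly coincide.

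Agreement of the arrays was close for most genes. Over all 18193 genes the log2 values had a Pearson correlation of 0.949 and a Spearman correlation of 0.937, and over the 9097 brighter genes 0.926 and 0.917. These are descriptions across genes, which are not replicates. The median absolute log2 difference of the brighter genes was 0.37, or 1.29-fold, and 91.0% of them lay within 2-fold. Of the 100 brightest genes of each array, 77 were shared, and of the 1000 brightest, 811. Replicate 1 was 2-fold or more higher for 492 brighter genes (5.41%) and replicate 2 for 327 (3.59%). With the arrays centred on their medians instead, the split was 173 against 1995. Centring moved the median difference of the brighter genes from -0.11 to -0.62, so list differences are read beside that shift. Of the brighter genes, 76 were 4-fold or more apart and 18 were 8-fold or more apart.

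**Figure D3:**
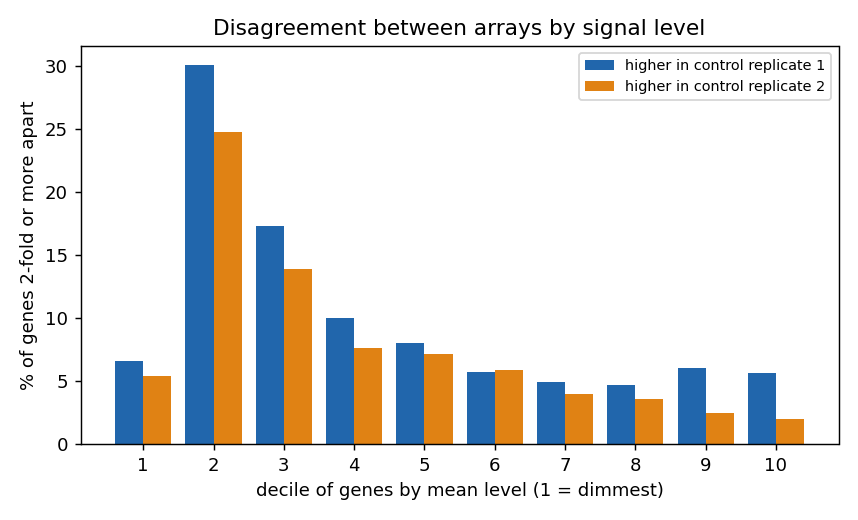
Share of genes 2-fold or more apart between the 2 control arrays (y axis, percent) in each decile of genes by mean level (x axis, 1 the dimmest), blue for higher in replicate 1 and orange for higher in replicate 2. Both directions together make 54.8% in decile 2 and 7.70% in decile 10. The pseudocount compresses decile 1.

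Several of the genes furthest apart differed between their own probe sets. Malat1, a nuclear long noncoding RNA, had 3705 and 136, the largest difference in favour of replicate 1. Of its 7 probe sets, 5 were over 2-fold higher in replicate 1, and the other two had 267 and 233, and 147 and 191. Hspa14 had 1371 and 133 on one probe set and 401 and 356 on another. Ercc8, a brighter gene through replicate 1 alone, had 609 and 32.2 on one probe set and 83.1 and 49.1 on another. H2-Bl, a class I gene of the histocompatibility complex, had 3987 and 317 on a single probe set that may bind related class I transcripts. Stxbp3 had 1475 and 132 on one probe set and 477 and 516 on the other. Gsta2 had 613 and 51.2 on a single probe set. Slc16a9 had 843 and 80.6, and its other probe sets, with 387 and 48.1, and 44.5 and 2.59, were higher in replicate 1 too. Ceacam1 had 2098.5 and 252 on its brightest probe set and 1305 and 224 on another, but 544 and 623 on a further one. In favour of replicate 2, Irak1, a kinase of Toll-like receptor signalling, had 91.1 and 629, while its 3 other probe sets were higher in replicate 1. Preb had 454 and 1939, and 316 and 314 on another probe set. Ighm, the constant region of IgM, had 131 and 531 on its brightest probe set, and its 11 probe sets went both ways. Over the list genes that were 2-fold apart and had over 1 probe set, 24 of 35 had the same sign in all their other probe sets and 11 did not.

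Ribosomal protein and housekeeping genes were bright with few exceptions. Of 19 measured ribosomal protein genes 17 lay at or above the 90th percentile, but Rps16 had 1.35 and 0.512 and Rps27 had 32.6 and 111, each on the 1 probe set named for it. Actb had 5117 and 3911 and Ldha, lactate dehydrogenase A, had 5092 and 6032. None of the 11 housekeeping genes was 2-fold apart.

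**Figure D4:**
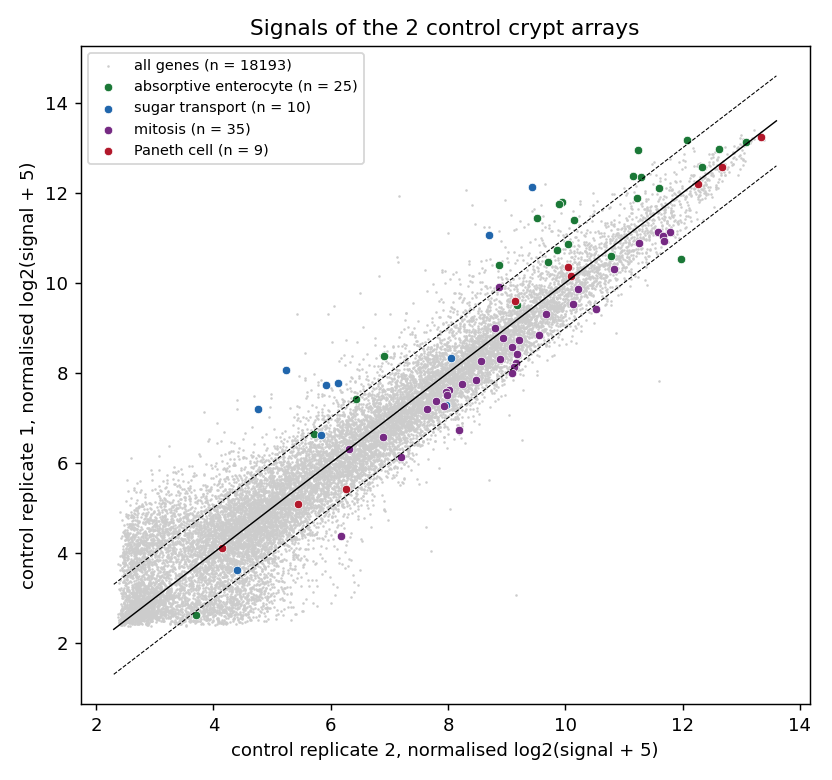
Normalised log2(signal + 5) of every gene in control replicate 1 (y axis) against replicate 2 (x axis), with all 18193 genes in grey and 4 lists in colour. The solid line marks equal values and the dashed lines a 2-fold difference. Most sugar transport genes (blue) and most enterocyte genes (green) lie above the line and most mitosis genes (purple) below it, with Slc2a1 (-0.68) and Ect2 (1.04) among the exceptions, and the brighter Paneth genes (red) lie close to it.

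The disagreement was grouped by function. Of the brighter genes as a whole, 42.3% were higher in replicate 1 by any amount. In the enterocyte list 22 of 24 were, 10 of them by 2-fold or more, against 1 that was 2-fold higher in replicate 2, and the median difference was 0.90. Of the 22 enterocyte genes above the limit in both arrays, 20 were higher in replicate 1, 10 by 2-fold or more. In the sugar transport list 8 of all 10 measured genes were, 6 by 2-fold or more, and the 9 brighter genes had a median of 1.81. Of these 9, 3 had passed the brightness filter through replicate 1 alone and so had to be higher there. Of the 6 that were above the filter's limit in both arrays, 5 were higher in replicate 1, 4 by 2-fold or more. In the lipid, sterol and bile acid list, which shares Fabp1, Fabp2 and Mttp with the enterocyte list, 15 of 16 were, 7 by 2-fold or more, with a median of 0.82. The medians of these 3 lists stayed above 0 under every scaling, and with median centring they were 0.34, 1.35 and 0.26.

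Digestive enzymes and nutrient carriers were among them. Slc5a1, the sodium-glucose cotransporter, had 4196 and 709, and its other probe set had 2835 and 1274. Slc2a2, the basolateral glucose carrier, had 2033 and 421. Slc2a5, the fructose carrier, had 213 and 59.3. Lct had 3333 and 1011, Mgam, maltase-glucoamylase, had 6923 and 2512, and Mep1b, a meprin subunit, had 2627 and 747. Mttp, which loads lipid onto apolipoprotein B, had 3232 and 976, and Apob had 2552 and 1169. Abcc2, an export pump for conjugates, had 736 and 236. Each of these 9 genes was over 2-fold higher in replicate 1. Fabp1, Fabp2 and Apoa4 had smaller differences of 0.06, 0.34 and 0.22 at the probe sets used. The other probe sets of Fabp1 and Apoa4 had 6112 and 4064, and 4585 and 3415, with differences of 0.83 and 0.60. Alpi, the intestinal alkaline phosphatase, had 4151 and 3249. Ada went the other way by 1.44 on the log2 scale.

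Dividing and stem cell genes lay on the opposite side. Of the brighter genes, 2 of 34 in the mitosis list, 9 of 39 in the replication list and 4 of 20 in the stem cell list were higher in replicate 1. Their median differences were -0.50, -0.41 and -0.51, and with median centring -1.10, -0.99 and -1.04, negative under every scaling. In each list 4 genes were 2-fold or more higher in replicate 2, as were 3.59% of all brighter genes. Of the 4 stem cell genes, Msi1 passed the brightness filter through replicate 2 alone. In the mitosis list these were Cenpe, Ccna2, Bub1b and Kif20a, and in the replication list Pole, Mcm2, Ccne1 and Tk1. Cenpe, a kinetochore motor, had 105 and 290, but its other probe set had 203 and 35.5. Ccna2, cyclin A2, had 663 and 1512, and 298 and 350 on its other probe set. Ccne1, cyclin E1, had 276 and 651, and 154 and 173 on its other. Mcm2 had 265 and 625, and 154 and 303 on its other. Ect2, which starts cytokinesis, was the 1 mitosis gene 2-fold higher in replicate 1, with 929 and 475.

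Markers of T lymphocytes, fibroblasts and smooth muscle moved with these lists, and their part in the differences was not tested. All 9 measured T lymphocyte genes were higher in replicate 1, 7 of them by 2-fold or more. Of the 5 brighter ones, 2 had passed the filter through replicate 1 alone, and the other 3 were 2-fold or more higher there, among them the granzyme Gzma with 1383 and 381 and the chemokine Ccl5 with 320 and 106. The summed signal of the 9 genes was 2224 and 663, and Cd3d and Cd3e had 34.6 and 3.85, and 36.2 and 4.24. Of 8 fibroblast genes 1 was higher in replicate 1, and their summed signal was 2081 and 3423. None of the 4 brighter smooth muscle genes of 7 measured was, and the sum over the 7 was 2178 and 3629. Further lists of other cells went both ways. Of their brighter genes, 4 of 6 macrophage, 1 of 2 endothelium and 2 of 3 pancreas genes were higher in replicate 1. So were 1 of 3 mast cell and 1 of 3 B and plasma cell genes, and 42.3% of all brighter genes. The pancreas gene Iapp, with 128 and 21.0, had passed the filter through replicate 1 alone. Of the 2 pancreas genes above the limit in both arrays, 1 was higher in replicate 1. The brighter interferon-induced genes were higher in replicate 1 in 12 of 14 cases, with a median difference of 0.69, and 1 of them, Irf9, by 2-fold. In bulk samples, more cells of a type and more RNA per cell cannot be told apart.

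**Figure D5:**
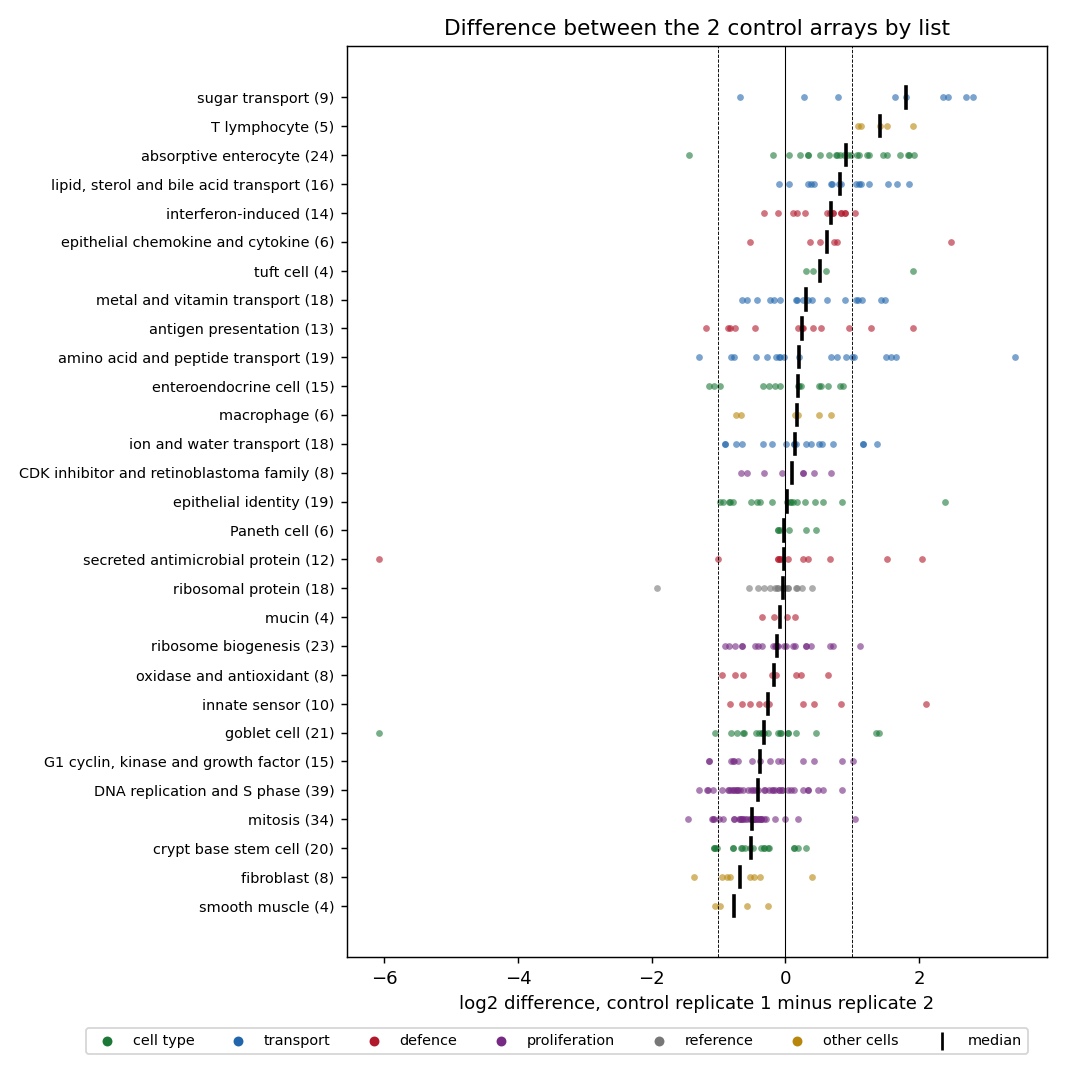
Log2 difference between the control arrays, replicate 1 minus replicate 2 (x axis), of every brighter gene (points) by list, with the number of genes in brackets, a black bar at the median and dashed lines at 2-fold. Medians run from 1.81 for sugar transport to -0.77 for smooth muscle, and the Paneth list lies at -0.01. Retnlb, a brighter gene through replicate 2 alone, is the point at -6.08 in both the goblet and the antimicrobial list.

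Promoters were searched for 3 short motifs, and the replication, mitosis and enterocyte lists are shown, all chosen with the values in view. RefSeq windows of 300 bases, from 250 before each start, were used for genes with 1 window. The letters were TATAAA for a TATA box, CCAAT for the CCAAT box, and TTTCCCGC, TTTCGCGC, TTTGCCGC or TTTGGCGC for an E2F site, on both strands. The E2F letters can overlap one another on opposite strands. Among 11791 measured genes, 10.2% held the TATA letters, 38.6% the CCAAT letters and 3.47% the E2F letters. In the replication list 10 of 27 windows held E2F letters (37.0%) and 18 held CCAAT. In the mitosis list 1 of 27 held E2F letters and 19 held CCAAT (70.4%). In the enterocyte list 8 of 22 held TATA letters (36.4%), 5 held CCAAT and 0 held E2F letters. Such shares were not particular to these lists. The sugar transport list held CCAAT in 6 of 8 windows and antigen presentation in 7 of 8, and the unrelated tissues held TATA in 11 of 32 (34.4%). E2F letters stood in 3 of 9 windows of the G1 cyclin list (33.3%) and in 2 of 8 of antigen presentation. A match is a description of letters and not of a bound site. The brightest gene of each list whose window held the motif is printed, with every match in capitals. Mcm5, a subunit of the replicative helicase, has overlapping E2F letters and 3 CCAAT matches (chr8:75109259-75109558 of GRCm38.p6, plus strand). Cdc20 has 2 CCAAT matches (chr4:118437294-118437593 of GRCm38.p6, minus strand). Fabp1 has 1 TATA match that begins 30 bases before the start (chr6:71199629-71199928 of GRCm38.p6, plus strand).
Mcm5: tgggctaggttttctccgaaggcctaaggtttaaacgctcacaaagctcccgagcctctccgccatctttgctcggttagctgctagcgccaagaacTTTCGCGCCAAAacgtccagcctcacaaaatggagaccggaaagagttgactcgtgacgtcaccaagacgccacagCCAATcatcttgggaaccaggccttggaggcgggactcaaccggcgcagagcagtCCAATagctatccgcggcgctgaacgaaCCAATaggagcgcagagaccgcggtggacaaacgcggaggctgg
Cdc20: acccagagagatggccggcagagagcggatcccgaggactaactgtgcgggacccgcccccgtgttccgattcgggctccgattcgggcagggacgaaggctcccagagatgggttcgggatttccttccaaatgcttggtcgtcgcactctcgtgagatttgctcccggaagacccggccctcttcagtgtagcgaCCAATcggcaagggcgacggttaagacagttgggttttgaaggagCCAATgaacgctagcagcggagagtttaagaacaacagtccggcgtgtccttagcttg
Fabp1: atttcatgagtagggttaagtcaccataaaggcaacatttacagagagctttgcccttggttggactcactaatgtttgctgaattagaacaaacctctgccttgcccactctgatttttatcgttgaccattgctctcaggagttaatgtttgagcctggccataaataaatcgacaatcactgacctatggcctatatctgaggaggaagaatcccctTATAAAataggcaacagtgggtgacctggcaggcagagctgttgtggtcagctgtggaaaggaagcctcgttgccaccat
Mcm5 had signals of 1441 and 2107 and Cdc20 2131 and 3218, both higher in replicate 2. The TATA-bearing Fabp1 differed by 0.06 on the log2 scale at its brightest probe set and by 0.83 on its other, both higher in replicate 1.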

How the data were processed

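Control crypt RNA was measured on 2 single-colour arrays. Each deposited value is a linear intensity per probe set. Per the submitters' processing notes, MAS5 was used; the sources used here state neither its version nor its scaling target. The method subtracts mismatch signal, so dim values are noisy, and amplification shortens transcripts from the 5′ end. Probe sets were named from the platform annotation; 932 with several symbols and 9160 with none were not used. A gene was read at its brightest probe set, a median of 2.26-fold above the next over 9010 genes with several.

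Values were analysed with Python 3.11.15, pandas 2.3.3 and numpy 2.4.6 as log2(intensity + 5), quantile normalised over both control arrays. Apart means a log2 difference of 1 or more; the scripts were tested on simulated data. Members and the 41 gene lists (588 of 663 genes measured) were chosen with earlier results of these data known. Genes were drawn from the 15 brightest, the 4 highest and 2 lowest of each list, and the 12 furthest apart in each direction. A set of marker genes and list members 2-fold apart were drawn on too. Not every gene of these groups is named in the text, and other names were chosen after their values were seen. Sis, Ccnb1 and Gapdh were not analysed here. No test was possible with 1 group of 2 arrays, whose number limits the precision. Alternatives were the scaling (including quantiles over all 4 arrays), pseudocounts 1 and 32, the filter, the probe set choice and each array alone.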

Additional observations from a re-analysis of the deposited data

How the results depend on the processing

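No paired analysis was possible because the values come from 1 group and from no test. The limits for calling a value moved were working limits set after list values had been seen: 0.02 for r, 0.9 for the rank correlation of list orders, 1.5 times for counts, and 0.2 as the least list median given a direction. The correlation of 0.926 became 0.949 without a filter and 0.876 with the filter at the 75th percentile. The 492 genes higher in replicate 1 became 173 with median centring, 1801 without a filter and 251 at the 75th percentile, and the 327 higher in replicate 2 became 1995, 1397 and 112, and 166 with a pseudocount of 32. The order of list medians had a rank correlation with the reported order of 0.843 with the mean of all probe sets, 0.837 without shared-transcript probe sets, and 0.938 to 0.963 with one array alone.

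Median centring moved the median differences to -1.04 for stem cell, -0.92 goblet, 0.13 tuft, -0.77 innate sensor, -0.99 replication, -1.10 mitosis, -0.95 G1 cyclin, -1.19 fibroblast, -0.82 B and plasma cell, -0.86 mast cell, 0.23 stomach and -0.66 proximal small intestine genes. It reversed amino acid transport (-0.21), metal transport (-0.26), antigen presentation (-0.38), pancreas (-0.18) and large intestine (-0.26). The 75th percentile filter reversed innate sensor (0.42), pancreas (-0.29) and proximal (0.20) genes and moved chemokines to 0.10. Without a filter B and plasma cell (0.0684), pancreas (-0.33) and large intestine (-0.0214) genes reversed, and mast cell (-0.0748) and stomach (0.15) genes moved. Choosing probe sets otherwise moved pancreas genes to 0.00061 (mean) and 0.67 (without shared-transcript probe sets), and innate sensor genes to -0.0112. The cause was not tested. The share of genes 2-fold apart was 54.8% in decile 2 of level and 7.70% in decile 10. It was smaller in decile 1, which the pseudocount compresses, than in decile 2. The part of low signal in the disagreement was not tested.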
